A study of Mus musculus with 96 samples.

Results

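The effect of candesartan on the uninjured hippocampus was examined at 3 days post-injury (dpi) in 8 of the 96 RNA-seq libraries of the series, 4 from sham mice given candesartan (Sham + CD) and 4 from sham mice given vehicle (Sham + VH). All were male C57BL/6 mice of 8 to 10 weeks that had anesthesia and a scalp incision but no craniectomy and no impact, so neither group carried an injury. Candesartan was injected intraperitoneally at 0.1 mg/kg at 6, 24 and 48 h after the sham procedure, and the vehicle was saline with sodium carbonate on the same schedule. Mice were perfused with saline, the ipsilateral hippocampus was dissected, and mRNA of each animal was sequenced in bulk. The comparison asks what the drug alone changed. The other hippocampal groups at 3 dpi, TBI + VH and TBI + CD, received a controlled cortical impact and are used for the common estimate of spread and for the contrast with injured mice.

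Candesartan is an angiotensin receptor blocker that occupies the AT1 receptor, through which angiotensin II constricts vessels and raises inflammatory signaling. The choroid plexus is a sheet of secretory epithelium over a fibrous and vascular core, which projects into the ventricles, makes cerebrospinal fluid and is anchored along the margin of the hippocampus. Next to it, ependymal cells line the ventricle and carry motile cilia that move the fluid. Epithelial cells of the choroid plexus are known for very high levels of Ttr, the carrier of thyroxine and retinol, together with ion transporters, tight junction proteins and angiotensin-converting enzyme.

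The 8 libraries held between 20530918 and 27452743 counts. No pair of replicates agreed within sampling noise, since chi-square per degree of freedom between replicates lay between 4.91 and 27.1. Libraries are numbered 1 to 4 in the labels, and nothing says that equal numbers share a litter or a day, so p-values measure the spread between these animals. Neuronal markers were high in all 8 libraries, with Camk2a, the calcium-dependent kinase of excitatory synapses, between 5187 and 6298 CPM. A library stood apart before any test. The summed level of the choroid plexus list, 39 measured genes of 40 listed, in replicates 1 to 4 was 9741, 7068, 681 and 7864 CPM for the vehicle group and 389.6, 411, 463 and 433 CPM for the candesartan group. Sham + VH replicate 3 therefore lay near the candesartan libraries and not near its own group. Counts of DEGs and the values of some genes are also given without it. It was picked out by these values, so stronger results for choroid plexus genes without it follow in part from that choice.

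Candesartan in sham mice was accompanied by 251 DEGs among 16756 genes tested (1.5%), of which 237 fell (1.41%) and 14 rose (0.0836%). The decreases were also larger, with a median log2 fold change of -1.48 and a range from -6.65 to -0.37, whereas the increases ran from 0.32 to 1.13 with a median of 0.49. Decreases of more than 1 on the log2 scale numbered 157, those of more than 2 numbered 86, and those of more than 4 numbered 28. A single increase exceeded 1. The smallest FDR was 0.0218, and 2511 genes had an unadjusted p under 0.05, 1171 of them higher and 1340 lower in Sham + CD. The median log2 fold change of all genes was -0.000275.

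**Figure D1:**
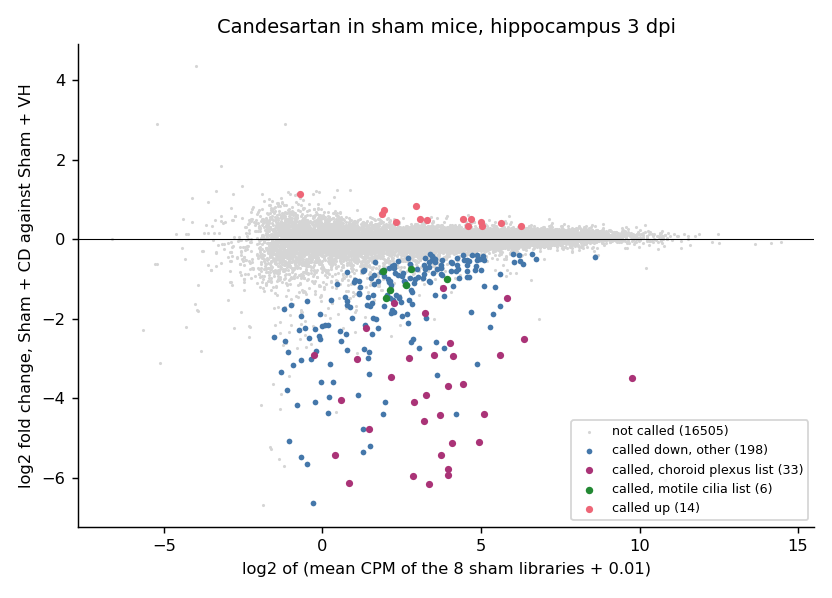
Log2 fold change of Sham + CD against Sham + VH (vertical axis) for each of the 16756 genes tested, against log2 of the mean CPM of the 8 sham libraries plus 0.01 (horizontal axis). The 33 called choroid plexus genes lie far below 0, the 6 called motile cilia genes between -1.49 and -0.75, and the 14 called increases between 0.32 and 1.13.

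The number of DEGs depended on single libraries. It was 553 without Sham + VH replicate 3 (526 lower, 27 higher), and these included 244 of the 251. Without Sham + VH replicate 1 a single DEG was left, Aldh3b1, and edgeR called 0 genes without Sham + VH replicate 2 or 4 (2182 and 1837 at an unadjusted p under 0.05). Leaving out a candesartan library gave 2 DEGs without replicate 1 (Kcnh7 and Nxn), 1 without replicate 3 (Nxn), and 0 without replicate 2 or 4 (2422 and 1692 at an unadjusted p under 0.05). The smallest FDR of the 4 settings with 0 DEGs lay between 0.0521 and 0.0945, close to the threshold. With all libraries DESeq2 called 440 genes, which included 248 of the 251.

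**Figure D2:**
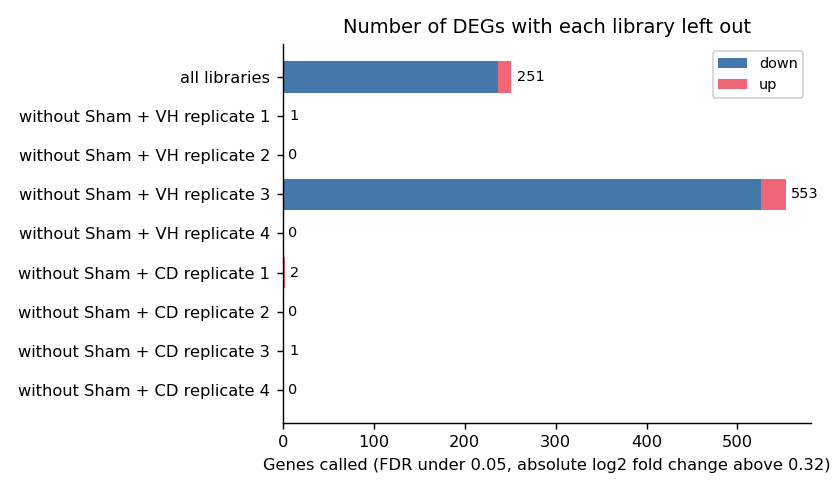
Number of DEGs (horizontal axis, genes) with all libraries and with each of the 8 sham libraries left out in turn (bars, lower genes blue and higher genes red). The count is 251 with all libraries, 553 without Sham + VH replicate 3, and between 0 and 2 without any of the other 7.

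Genes of the choroid plexus epithelium made up the list with the lowest median. Of the 39 measured members 33 were called lower, against 1.41% of all genes, and 0 were called higher. All 39 had a negative log2 fold change and their median was -3.64. The groups did not overlap in 27 of the 39, compared with 8.78% of all genes. In bulk tissue a smaller number of choroid plexus cells in the dissected piece and less RNA per cell cannot be told apart.

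The short sequences before the gene starts are shown for 4 decreased genes because they carry the motifs searched below. They are Kcne2 and Kcnj13, potassium channel genes of the choroid plexus, Ace, which makes angiotensin II, and Dnaic2, which encodes an intermediate chain of the dynein of motile cilia. Each is an upstream stretch from RefSeq on GRCm38.p6 that ends directly before the start of the gene in GENCODE. Bases past that start were cut, which left 247 for Ace and 239 for Dnaic2. The stretches are written 5′ to 3′ on the strand of the gene, with the motif or its reverse complement in capitals. The regions are chr16:92292139-92292388 (plus strand) for Kcne2, chr1:87394730-87394979 (minus strand) for Kcnj13, chr11:105967698-105967944 (plus strand) for Ace and chr11:114727169-114727407 (plus strand) for Dnaic2.
Kcne2: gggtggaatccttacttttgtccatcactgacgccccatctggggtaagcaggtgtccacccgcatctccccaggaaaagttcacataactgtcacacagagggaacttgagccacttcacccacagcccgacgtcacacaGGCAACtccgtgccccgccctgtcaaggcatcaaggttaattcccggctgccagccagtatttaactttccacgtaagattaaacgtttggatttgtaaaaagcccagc
Kcnj13: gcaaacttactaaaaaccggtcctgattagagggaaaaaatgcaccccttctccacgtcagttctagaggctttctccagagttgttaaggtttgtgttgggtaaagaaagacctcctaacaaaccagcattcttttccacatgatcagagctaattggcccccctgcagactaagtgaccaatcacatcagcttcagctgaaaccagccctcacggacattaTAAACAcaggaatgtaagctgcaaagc
Ace: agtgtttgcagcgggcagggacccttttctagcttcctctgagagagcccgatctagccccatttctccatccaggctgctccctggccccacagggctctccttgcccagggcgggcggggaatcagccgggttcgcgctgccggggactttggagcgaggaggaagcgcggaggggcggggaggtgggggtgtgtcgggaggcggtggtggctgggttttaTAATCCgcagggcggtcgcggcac
Dnaic2: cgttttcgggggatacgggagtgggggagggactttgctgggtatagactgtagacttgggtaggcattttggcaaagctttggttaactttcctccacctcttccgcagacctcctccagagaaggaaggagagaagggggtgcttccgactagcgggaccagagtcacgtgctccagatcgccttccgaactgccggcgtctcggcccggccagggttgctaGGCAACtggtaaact

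In the 250 bases upstream of each gene both strands were searched for 3 motifs, none of which contains another. GTTGCC, a part of the X-box that RFX factors bind in cilia genes, was present in 33.3% of the 39 motile cilia genes with an upstream sequence, in 19.4% of 31 choroid plexus genes and in 10.5% of all 27025 sequences. TAATCC, the core that OTX2 binds, was present in 12.9% of the choroid plexus genes and in 6.38% of all. TGTTTA, the forkhead core, was present in 19.4% of the choroid plexus genes, 23.1% of the motile cilia genes and 12.03% of all. Of the 237 decreased genes 166 had a sequence, of which 16.9% held GTTGCC, 6.02% held TAATCC and 7.83% held TGTTTA. Among the 11631 genes tested that had a sequence the shares were 10.8% for GTTGCC, 5.055% for TAATCC and 7.63% for TGTTTA, so for the latter pair decreased genes were near the share of genes tested. A match describes these letters and does not show that a factor binds.

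Among transporters and channels of the choroid plexus, Kcne2 (chr16:92292389-92298129), the beta subunit of an apical potassium channel, was measured at 30.4, 23.7, 0.615 and 26.2 CPM in Sham + VH and at 0.228, 0.200, 0.297 and 0.383 CPM in Sham + CD. The 4 candesartan libraries were low, replicate 3 of Sham + VH stood just above them, and the groups did not overlap. Its log2 fold change was -6.17 ± 1.27 (SE, n = 4 per group, FDR 0.0266) and -6.58 without Sham + VH replicate 3 (FDR 0.00122). Aqp1, the water channel of the apical membrane (chr6:55336432-55348555), had 38.3, 30.8, 1.39 and 33.0 CPM in Sham + VH against 0.684, 0.642, 0.446 and 0.596 CPM in Sham + CD. Replicate 3 again held the lowest vehicle value without reaching the candesartan range, and the log2 fold change was -5.43 ± 1.07 (SE, n = 4 per group, FDR 0.024). Kcnj13, an inwardly rectifying potassium channel, fell by 5.77 on the log2 scale. Slc4a5, a bicarbonate transporter, fell by 5.93. Slc4a2, an anion exchanger also found in other cells, was measured at 106, 91.0, 36.1 and 97.5 CPM in Sham + VH and between 27.3 and 30.7 CPM in Sham + CD, and its decrease was the second smallest of the 33 at -1.48.

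Secreted proteins, receptors and junction proteins of the epithelium followed the same order of libraries. Enpp2, which encodes autotaxin, the enzyme that makes lysophosphatidic acid (chr15:54838901-54952892), had 2028, 1864, 257 and 2226 CPM in Sham + VH and 107, 148, 157 and 152 CPM in Sham + CD. The groups did not overlap, and the log2 fold change was -3.50 ± 0.69 (SE, n = 4 per group, FDR 0.024). Kl, the ageing-related hormone klotho, was at 182, 157, 29.9 and 184 CPM against 20.1, 22.6, 26.1 and 28.5 CPM, with a log2 fold change of -2.51 ± 0.57 (SE, FDR 0.0339). Log2 fold changes were -5.12 for Folr1, the folate receptor of the epithelium, -5.09 for the coagulation factor gene F5, -4.43 for the claudin gene Cldn2 and -4.40 for the chloride channel gene Clic6. Otx2, the homeodomain factor required for choroid plexus identity, was at 19.6, 15.97, 2.62 and 17.4 CPM in Sham + VH and between 0.411 and 1.49 CPM in Sham + CD. Its log2 fold change was -4.09 ± 0.94 (SE, FDR 0.035). The smallest called decrease of the list was that of Car14, a carbonic anhydrase, at -1.23.

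The most abundant choroid plexus transcript did not pass the threshold in spite of the size of its difference. Ttr (chr18:20665280-20674321) was measured at 6123, 3857, 153 and 4089 CPM in Sham + VH and at 35.3, 36.4, 80.0 and 61.5 CPM in Sham + CD. The groups did not overlap, but the vehicle libraries spanned a wide range, and the log2 fold change of -6.06 ± 1.53 (SE, n = 4 per group) had an FDR of 0.0546. Without Sham + VH replicate 3 it was -6.47 with an FDR of 0.0175. Igf2, a growth factor of choroid plexus and meninges, had a log2 fold change of -2.02 (FDR 0.0591) with all libraries. Without replicate 3 the number of choroid plexus genes called lower went from 33 to 39 of the list, where 3.11% of all genes were called lower. This library was singled out after its low level of these genes was seen, so the stronger result follows in part from that choice. DESeq2 with all libraries called 33, against 2.42% of all genes. The number called by edgeR was 0 without any 1 of the other 7 sham libraries. The median of the list stayed between -4.03 and -3.47 over the 8 libraries left out.

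**Figure D3:**
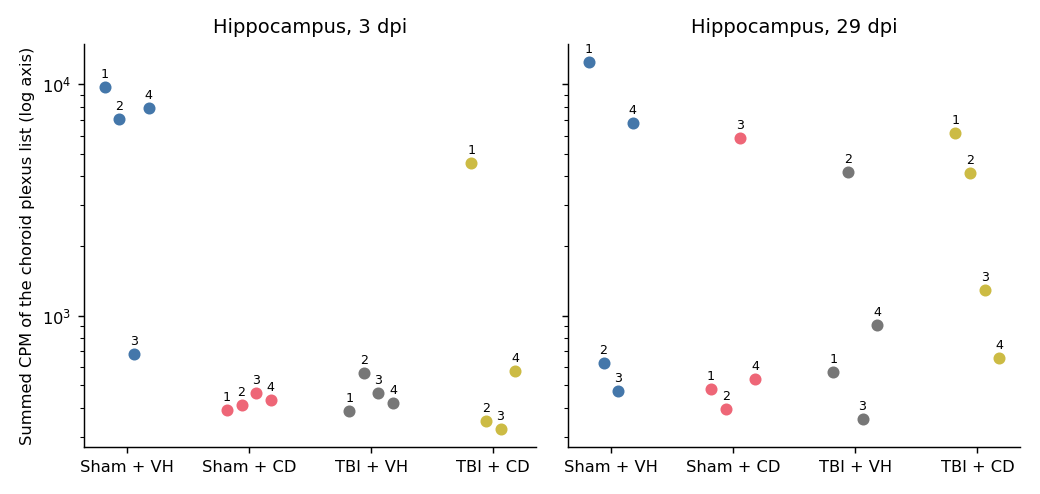
Summed CPM of the choroid plexus list (vertical log axis) in each hippocampal library at 3 dpi (left) and 29 dpi (right), by group, with replicate numbers above the points. At 3 dpi 4 of 16 libraries exceed 1000 CPM, replicates 1, 2 and 4 of Sham + VH and replicate 1 of TBI + CD, and at 29 dpi 7 of 16 do, with at least 1 in each group.

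The same score separated libraries inside other groups of the study. At 3 dpi it was 388 to 567 CPM in the TBI + VH libraries, and 4557, 349.8, 325 and 576 CPM in TBI + CD replicates 1 to 4. Only 4 of 16 hippocampal libraries at 3 dpi were over 1000 CPM, 3 of them Sham + VH and the other TBI + CD replicate 1. At 29 dpi 7 of 16 were over 1000 CPM, namely 2 of Sham + VH, 1 of Sham + CD, 1 of TBI + VH and 3 of TBI + CD. When the mean log2 CPM of the list was entered as a covariate in the fit at 3 dpi, edgeR called 0 genes (888 at an unadjusted p under 0.05, smallest FDR 0.825). The covariate is built from genes that differ between the groups, and apart from replicate 3 of Sham + VH it follows the group labels in the sham libraries, so drug and score can hardly be told apart in this fit. The part of choroid plexus content in the result was not tested further.

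Genes of motile cilia formed another group of decreases, with a summed level that was not low in Sham + VH replicate 3. Of 40 measured members of 46 listed, 6 were called lower and 0 higher, against 1.41% of all genes called lower, and the median log2 fold change was -0.68 with 36 of 40 negative. The summed level of the list was 258, 261, 279 and 313 CPM in Sham + VH and 178, 223, 212 and 163 CPM in Sham + CD. Here replicate 3 of Sham + VH was not low, and the groups did not overlap. The sum was 199 to 251 CPM in TBI + VH and 285, 189, 156 and 176 CPM in TBI + CD. Replicate 1 of TBI + CD, high for choroid plexus genes, was thus the highest of its group here too.

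Foxj1, the master transcription factor of motile cilia (chr11:116330704-116335399), was at 19.0, 18.7, 20.9 and 22.6 CPM in Sham + VH and at 9.12, 13.6, 11.2 and 6.60 CPM in Sham + CD. All vehicle libraries were higher than all candesartan libraries, and the log2 fold change was -1.01 ± 0.24 (SE, n = 4 per group, FDR 0.0375). Without replicate 3 of Sham + VH it was -0.997 (FDR 0.0387). Rsph1, a radial spoke protein (chr17:31255019-31277383), was at 8.66, 6.95, 8.57 and 9.99 CPM against 3.74, 4.73, 4.56 and 2.30 CPM, which gave a log2 change of -1.16 ± 0.23 (SE, FDR 0.0243). Cfap126, a basal body protein, was at 5.63, 5.61, 5.58 and 6.77 CPM against 2.05, 2.57, 2.28 and 1.49 CPM, which gave a log2 change of -1.49 ± 0.34 (SE, FDR 0.034). Tekt1, a filament protein of the axoneme, fell by 1.27 on the log2 scale, and Dnaic2, shown above with its upstream sequence, fell by 0.81. The sixth, Ccdc114, a docking protein of outer dynein arms, had 9.66, 9.15, 5.62 and 10.1 CPM in Sham + VH against 5.88, 5.81, 4.71 and 4.05 CPM in Sham + CD. It was the only called member of the list in which replicate 3 fell among the candesartan libraries, and its log2 fold change was -0.75 ± 0.17 (SE, FDR 0.0343).

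Efhb, an EF-hand protein of the axoneme that was in no list, showed the larger decrease of -2.18 ± 0.36 (SE, FDR 0.0221), from 1.40, 1.33, 1.64 and 2.05 CPM to 0.274, 0.561, 0.347 and 0.213 CPM. These are low levels, and the groups did not overlap. Abundant cilia genes without a call were Ccdc39, an assembly ruler of the axoneme, at -0.16 (FDR 0.395), Cfap44 at -0.58 (FDR 0.11) and the dynein heavy chain Dnah9 at 0.07 (FDR 0.878). DESeq2 called 13 members of the cilia list lower (2.42% of all genes), and edgeR called 11 without replicate 3 of Sham + VH (3.11% of all genes). Without any 1 of the other 7 sham libraries edgeR called 0, as it did with the choroid plexus score as covariate, and the median of the list lay between -0.85 and -0.52 over the 8 libraries left out.

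**Figure D4:**
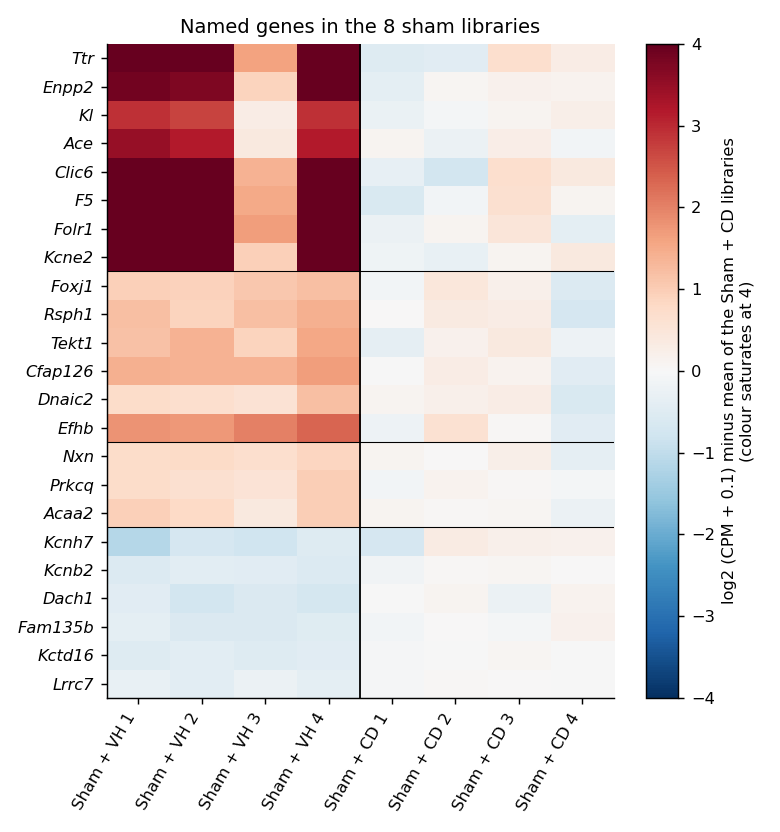
Log2 of CPM plus 0.1 minus the mean of the Sham + CD libraries (colour, saturated at 4) for named genes (rows) in the 8 sham libraries (columns). Rows run from choroid plexus genes to motile cilia genes with Efhb, the decreases with the smallest p, and increased genes. Sham + VH replicate 3 is pale in the first block but matches its group in most of the others.

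Where replicate 3 of Sham + VH lay between the groups differed from gene to gene among the DEGs. On a scale on which the mean of Sham + CD is 0% and the mean of the other 3 Sham + VH libraries is 100%, its median position was 27.7% over the 237 decreased genes and 101% over the 14 increased genes. Of the decreased genes 112 were under 25%, 65 from 25% to 50%, 34 from 50% to 75% and 26 above 75%. The 33 choroid plexus genes had a median of 20.04%, with 32 of 33 under 50%, and the 6 motile cilia genes a median of 80.5%, with 5 at 50% or more. This scale was chosen after the values were seen and uses the values of the comparison itself, so it is a description.

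Of the 10 decreased genes with the smallest p, 4 had log2 fold changes between -0.79 and -0.73. Nxn, a thioredoxin-like oxidoreductase that restrains Wnt signaling (chr11:76257198-76399140), was at 14.9, 15.3, 14.4 and 16.3 CPM in Sham + VH and at 9.62, 9.06, 10.5 and 6.99 CPM in Sham + CD. The groups were well apart, replicate 3 included, and the log2 fold change was -0.75 ± 0.11 (SE, n = 4 per group, FDR 0.0218). Prkcq, protein kinase C theta (chr2:11172108-11301222), was at 16.48, 15.5, 14.5 and 19.6 CPM against 9.21, 10.9, 10.3 and 9.37 CPM, with a log2 fold change of -0.73 ± 0.11 (SE, FDR 0.0218). Acaa2, a thiolase of mitochondrial fatty acid oxidation, was at 33.6, 29.7, 22.8 and 33.9 CPM in Sham + VH and between 14.6 and 18.6 CPM in Sham + CD, with a log2 fold change of -0.79 (FDR 0.0221). Aldh3b1, an aldehyde dehydrogenase that clears lipid aldehydes, was at 4.87, 6.49, 5.62 and 6.62 CPM against 3.69, 3.61, 3.62 and 3.32 CPM, which gave a log2 change of -0.73 (FDR 0.0221). Replicate 3 was within its group for Aldh3b1 and lowest of it for Acaa2.

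The other 6 had larger decreases, among them Efhb at -2.18. Sulf1, an extracellular sulfatase that trims heparan sulfate, was at 68.6, 57.9, 8.81 and 72.9 CPM in Sham + VH and between 3.28 and 8.53 CPM in Sham + CD. Replicate 3 of Sham + VH was barely above the highest candesartan library, and the log2 fold change was -3.13 ± 0.53 (SE, FDR 0.0221). Log2 fold changes were -1.84 for Mdfic, -1.68 for Vat1l and -1.41 for Cdr2, each at an FDR of 0.0221 and with replicate 3 as the lowest vehicle library. Ccdc24 was at 2.75, 2.66, 2.05 and 2.96 CPM in Sham + VH and between 0.596 and 1.002 CPM in Sham + CD, and fell by 1.65 on the log2 scale (FDR 0.0221). Its replicate 3 lay nearer to the other vehicle libraries than to the candesartan libraries.

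Libraries from other mice at 29 dpi were used to see which of these genes vary together with choroid plexus genes. Over the 16 hippocampal libraries at 29 dpi, each expressed as its deviation from its group mean, the correlation of every gene with the choroid plexus score was computed. It is a description with n = 16 libraries that share dissection, and the score includes the list's own genes. Of the 237 genes decreased at 3 dpi 236 had a value, and 223 of these (94.5%) had r above 0.7, compared with 689 of 16529 genes tested (4.17%) and 0 of the 14 increased genes. Outside the choroid plexus list it was 190 of 203. The median r was 0.92 for decreased genes, -0.30 for increased genes and -0.03 for all genes. The 6 called motile cilia genes had values from 0.85 to 0.98, so they varied with the score at 29 dpi, whereas at 3 dpi replicate 3 of Sham + VH fell among the candesartan libraries for Ccdc114 alone among the 6.

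**Figure D5:**
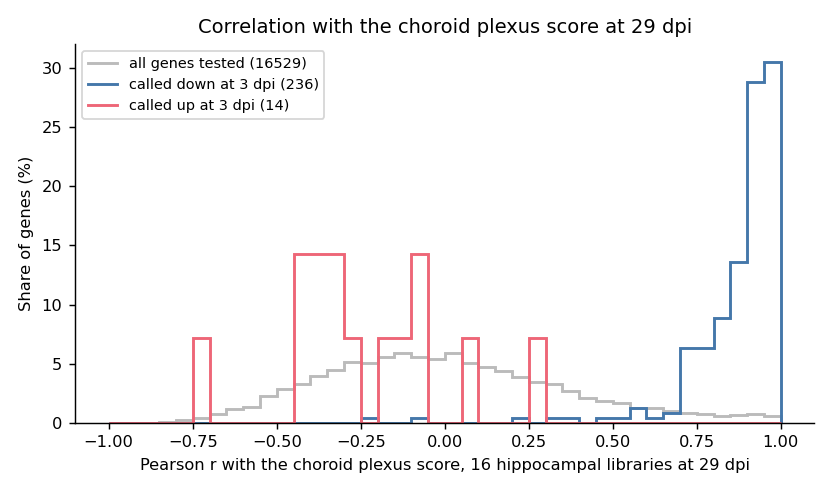
Distribution of Pearson's r between each gene and the choroid plexus score over the 16 hippocampal libraries at 29 dpi (horizontal axis), as the share of genes in each bin (vertical axis, %), for all genes tested, for genes decreased at 3 dpi and for genes increased at 3 dpi. Decreased genes pile up toward 1, with 94.5% above 0.7, while all genes spread around 0.

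Of the decreased genes 13 had r of 0.7 or less, and those named here were chosen after their values were seen. Lipe, hormone-sensitive lipase (chr7:25379527-25398710), was at 9.38, 10.9, 11.8 and 11.4 CPM in Sham + VH and at 8.71, 7.94, 7.98 and 6.94 CPM in Sham + CD. The groups did not overlap, the log2 fold change was -0.46 ± 0.11 (SE, FDR 0.0414), and r at 29 dpi was 0.21. Cryab, a small heat shock protein of glia, was at 69.1, 86.5, 94.1 and 88.1 CPM against 64.3, 72.6, 62.4 and 56.7 CPM, with 1 vehicle library inside the candesartan range. Its log2 fold change was -0.40 ± 0.10 (SE, FDR 0.0421) and its r was -0.23. Whrn, the scaffold protein whirlin, was at 30.3, 32.4, 25.7 and 29.7 CPM against 22.7, 22.7, 18.3 and 16.8 CPM, which gave a log2 change of -0.55 ± 0.10 (SE, FDR 0.0233) with r of 0.37. Igfn1, a protein of the muscle Z-disc, had r of 0.34 yet the library order of the choroid plexus genes, with 5.63, 5.49, 0.984 and 7.75 CPM in Sham + VH against 0.593, 1.12, 1.09 and 0.980 CPM in Sham + CD.

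The renin-angiotensin system, the pathway that the drug acts on, had 16 measured members of 20 listed, of which 2 were called lower, against 1.41% of all genes, and 0 higher, with a median log2 fold change of -0.03. Ace, the converting enzyme (chr11:105967945-105989964), which is also in the choroid plexus list, was at 125, 101, 14.8 and 101 CPM in Sham + VH and at 12.1, 9.38, 13.3 and 10.3 CPM in Sham + CD. Replicate 3 stood just above the candesartan libraries, and the log2 fold change was -2.92 ± 0.62 (SE, n = 4 per group, FDR 0.0286). With the choroid plexus score as covariate it was 0.086. Agtrap, a protein that promotes internalization of the AT1 receptor (chr4:148077061-148088031), was at 14.5, 12.7, 10.2 and 14.5 CPM against 10.2, 8.58, 8.43 and 9.03 CPM. The groups overlapped at 10.2 CPM, and the log2 fold change was -0.52 ± 0.12 (SE, FDR 0.0339).

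The receptors and the substrate did not pass the test. The AT1 receptor gene Agtr1a, the target of candesartan, was low in all libraries, from 0.402 to 0.738 CPM in Sham + VH and from 0.496 to 0.912 CPM in Sham + CD, with a log2 fold change of 0.12 ± 0.30 (SE, FDR 0.891). Agtr2, the AT2 receptor, had -0.18 ± 0.38 (SE, FDR 0.874) at similarly low levels. Agt, the precursor of the angiotensins, was at 35.2, 40.2, 39.7 and 42.3 CPM against 35.6, 35.4, 37.3 and 20.4 CPM, with a log2 fold change of -0.29 ± 0.15 (SE, FDR 0.384). Replicate 4 of Sham + CD was low and the other 3 overlapped with the vehicle group. Mas1, the receptor of angiotensin-(1-7), had -0.06 (FDR 0.764), and Ctsd, a lysosomal protease counted in the pathway, -0.40 (FDR 0.33).

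Increases were few and small. Kcnb2, a delayed rectifier potassium channel (chr1:15287254-15723750), was at 6.70, 7.20, 7.09 and 6.69 CPM in Sham + VH and at 8.89, 10.1, 10.2 and 9.93 CPM in Sham + CD. All candesartan libraries were higher than all vehicle libraries, and the log2 fold change was 0.50 ± 0.10 (SE, n = 4 per group, FDR 0.0286). Kcnh7, an ERG-type potassium channel (chr2:62693414-63184287), was at 4.23, 5.95, 5.41 and 6.69 CPM in Sham + VH, at 5.93 CPM in Sham + CD replicate 1 and between 10.7 and 11.9 CPM in the other 3. Replicate 1 of Sham + CD lay inside the vehicle range, and the log2 fold change was 0.83 ± 0.18 (SE, FDR 0.0294). It was the only one of the 14 whose groups overlapped.

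Kctd16, an auxiliary subunit of GABA-B receptors (chr18:40256962-40531630), was at 7.90, 8.44, 7.99 and 8.38 CPM in Sham + VH and at 11.1, 11.2, 12.1 and 11.3 CPM in Sham + CD. The spread within each group was small beside the gap, and the log2 fold change was 0.48 ± 0.10 (SE, FDR 0.0291). Dach1, a transcriptional corepressor (chr14:97786853-98169765), was at 3.23, 2.62, 2.95 and 2.71 CPM against 4.38, 4.81, 3.77 and 4.94 CPM, which gave a log2 change of 0.64 ± 0.12 (SE, FDR 0.0233). Fam135b (chr15:71431609-71727838) was between 19.8 and 22.9 CPM in Sham + VH and at 27.7, 30.3, 28.1 and 33.4 CPM in Sham + CD, a log2 fold change of 0.51 ± 0.11 (SE, FDR 0.0294). The remaining named increases were Lrrc7, the postsynaptic scaffold densin, at 0.33, the zinc finger factor Klf10 at 0.33, Zbed6, a repressor of Igf2 in muscle, at 0.43 and the protocadherin Pcdhb5 at 0.43. The transporter Abca8b, chosen after its values were seen, was at 0.32. AK079811, AK138348, AK134750 and AK081211, symbols without a position in the annotation used here, had 0.73, 1.13, 0.51 and 0.40.

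Other genes of ion channels and transmitter receptors had mostly positive log2 fold changes without a call, and so had the general neuron markers (14 of 17 positive, median 0.05). Of 36 measured genes of voltage-gated potassium channels, a list without the choroid plexus genes Kcne2 and Kcnj13 that were called lower, 2 were called higher, Kcnb2 and Kcnh7, against 0.0836% of all genes, and 29 were positive, with a median log2 fold change of 0.14. This list and that of sodium and calcium channels were drawn up with results on these samples known. Neither is independent evidence of a direction. Kcna2, a channel of axons, was at 172, 188, 195 and 189.7 CPM in Sham + VH and at 211, 212, 223 and 221 CPM in Sham + CD, and its log2 fold change of 0.22 (FDR 0.0339) stayed under the fold threshold. Sodium and calcium channels had 0 calls by edgeR among 21 measured genes (15 positive, median 0.16, 9 at an unadjusted p under 0.05, 1 called by DESeq2). Glutamate and GABA-A receptor subunits had 0 among 34 (30 positive, median 0.17, 16 at an unadjusted p under 0.05, 1 called by DESeq2). Over all 16756 genes tested 2511 had an unadjusted edgeR p under 0.05, and DESeq2 called 440. Summed levels did not overlap for either list, at 2280 to 2423 CPM in Sham + VH and 2608 to 2854 CPM in Sham + CD for sodium and calcium channels, and at 5252 to 5718 CPM and 5922 to 6808 CPM for the receptor subunits. Single genes without overlap numbered 6 of 21 and 9 of 34, compared with 8.78% of all genes. Many of these genes are long, with 13 of 20 and 23 of 34 spanning over 100000 bases, and genes over 200000 bases were positive in 72.3% of cases among all tested. The part of neuronal content and gene length in these values was not tested. Gria2, a subunit of AMPA receptors, was at 765, 709, 809 and 641 CPM against 756, 824, 902 and 1020 CPM, with overlap and an FDR of 0.229.

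Single members of 3 other lists were called lower, in lists of 22 to 35 measured genes, where 1.41% of all genes tested were called lower. Bsg, a chaperone of lactate transporters that is abundant in brain endothelium and in choroid plexus, was at 516, 462, 335 and 484 CPM in Sham + VH and at 341, 336, 321 and 314 CPM in Sham + CD. Replicate 3 lay inside the candesartan range, and the log2 fold change was -0.46 ± 0.10 (SE, FDR 0.0339). It was the only one of 23 endothelial genes called, and the list had a median of -0.16. Igfbp2, an insulin-like growth factor carrier of meninges and choroid plexus, was at 84.8, 74.0, 17.3 and 84.8 CPM against 20.3, 19.0, 17.8 and 14.2 CPM, which gave a log2 change of -1.87 ± 0.45 (SE, FDR 0.0414). It was 1 of 35 in the list of leptomeninges and fibroblasts. Ucp2, a mitochondrial carrier listed with targets of PPAR gamma, fell by 0.95 on the log2 scale with 18.8 CPM in replicate 3 of Sham + VH against 36.1 to 38.2 CPM in the others, and was 1 of 22.

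For 26 of the 33 lists, with 434 measured members counted over the lists, edgeR called 0 genes, and the medians lay between -0.99 and 0.19. These are 425 different genes, of which 59 had an unadjusted p under 0.05 and 6 were called by DESeq2. Of all 16756 genes tested 2511 had an unadjusted edgeR p under 0.05, and DESeq2 called 440. The lowest median was that of 3 red blood cell genes. Their summed level varied within groups, from 4.61 to 95.9 CPM in Sham + VH and from 5.35 to 40.6 CPM in Sham + CD. Markers of neurons (17 genes, median 0.05), homeostatic astrocytes (19, -0.01), homeostatic microglia (19, -0.04) and oligodendrocytes (21, -0.21) were among these lists. Of the neuron markers 14 of 17 were positive, and their summed level did not overlap between the groups, at 17164 to 17983 CPM in Sham + VH and 18565 to 19237 CPM in Sham + CD. The list of activated microglia and phagocytes had a median of -0.40 over 19 genes, 16 of them negative and 5 without overlap between the groups, compared with 8.78% of all genes. Its summed level was 2750 to 2956 CPM in Sham + VH and 2291 to 2559 CPM in Sham + CD, so the groups did not overlap. Of its genes edgeR called 0, DESeq2 called 0 and 4 had an unadjusted p under 0.05. Apoe and Ctsd, both in this list, had means of 1670 and 468 CPM in Sham + VH against 1408 and 355 CPM in Sham + CD. The means of the sum were 2849 and 2430 CPM, so most of its gap lies in these genes. The summed oligodendrocyte level was 3630, 6290, 8959 and 6677 CPM in Sham + VH and 4506, 6439, 5667 and 5496 CPM in Sham + CD, so the spread within Sham + VH covered the candesartan group. Markers of neighbouring tissue had medians of 0.03 (thalamus and habenula, 18 genes), 0.01 (cortex and subiculum, 17 genes) and -0.20 (striatum and septum, 13 genes). Of the striatum and septum genes 11 were negative and 4 did not overlap between the groups (8.78% of all genes). DESeq2 called 2 of the 13, compared with 440 of all 16756 genes tested. The summed level of this list was 234 to 267 CPM in Sham + VH and 211 to 222 CPM in Sham + CD. Its mean went from 250 to 217 CPM and that of its member Ppp1r1b from 78.0 to 43.0 CPM, so the gap lies in this gene. Ppp1r1b, the phosphoprotein DARPP-32, was at 87.9, 86.5, 48.0 and 89.7 CPM against 41.7, 46.3, 42.5 and 41.5 CPM with an FDR of 0.0645. Replicate 3 of Sham + VH was the lowest of its group, and r with the choroid plexus score at 29 dpi was 0.79. Apoe, a lipid carrier of astrocytes that is counted in the list of activated microglia and phagocytes, was at 1556, 1764, 1665 and 1696 CPM against 1419, 1507, 1423 and 1280 CPM. Its log2 fold change of -0.25 ± 0.06 (SE) had an FDR of 0.0375 and stayed under the fold threshold.

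The effect of candesartan in sham mice was then set against its effect in injured mice at the same time and place. In injured mice edgeR called 0 genes (0.0%; 732 at an unadjusted p under 0.05), and the median log2 fold change of the choroid plexus list was 1.27, opposite in sign to -3.64 in sham mice. Replicate 1 of TBI + CD held the high level given above, and no fit without it was run. The difference between the effects was called for 0 genes by edgeR (0.0%; 2196 at an unadjusted p under 0.05, smallest FDR 0.0616) and for 330 by DESeq2. For Nxn the difference was -0.80 ± 0.15 (SE, FDR 0.0616), between -0.75 in sham and 0.05 in injured mice. For Kcnh7 it was 1.497 ± 0.255 (SE, FDR 0.0616), between 0.83 and -0.67. Without Sham + VH replicate 3 edgeR called 431 genes, and the other left-out libraries gave 0 or 1.

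TBI + VH against Sham + VH uses the same vehicle libraries, so its values are given only side by side. Kcne2 had a log2 fold change of -6.07 in that comparison and -6.17 for candesartan in sham mice, Enpp2 -3.18 and -3.50, and Ace -2.78 and -2.92. Foxj1 had -0.14 and -1.01, and Nxn 0.11 and -0.75. Of the 39 choroid plexus genes 36 were called lower after injury, against 1.72% of all genes (10.7% in either direction).

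The regions were dissected from brains of the same experiment, and whether equal numbers are the same animal is not given, so libraries of different regions may share animals while the fit treats them as independent. Among regions, candesartan in sham mice gave 0 calls by edgeR in the thalamus (0.0%; 1152 at an unadjusted p under 0.05) and 0 in the hypothalamus (0.0%; 361). The test of the difference between hippocampus and hypothalamus called 60 genes (0.337%), 59 of them more negative in the hippocampus and 53 among the 251 DEGs. Between hippocampus and thalamus it called 32 genes (0.18%), 30 more negative and 29 among the DEGs. Without Sham + VH replicate 3 these counts were 236 and 223, and without Sham + VH replicate 4 they were 22 and 10. Sfrp5, a secreted inhibitor of Wnt signaling, and Col17a1, a transmembrane collagen, led both, with differences of -3.71 ± 0.59 and -4.32 ± 0.69 (SE) against the hypothalamus, each at an FDR of 0.00129. Kcnb2 was the increased gene that differed from the thalamus, by 0.85 ± 0.18 (SE, FDR 0.0244), between 0.50 in the hippocampus and -0.34 in the thalamus. The choroid plexus list had medians of -1.08 in the thalamus, where the summed level ran from 444 to 5910 CPM in Sham + VH, and -0.02 in the hypothalamus, where it ran from 468 to 598 CPM.

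At 29 dpi, when the drug had been given by osmotic pump after the first injection, candesartan in sham mice gave 0 calls by edgeR in the hippocampus (0.0%; 810 at an unadjusted p under 0.05). The choroid plexus list had a median of -1.46, with 1 of 4 Sham + CD and 2 of 4 Sham + VH libraries over 1000 CPM. The difference between 3 and 29 dpi was called for 0 genes by edgeR (0.0%; 898 at an unadjusted p under 0.05) and for 0 by DESeq2. For Foxj1 the effects were -1.01 at 3 dpi and -0.65 at 29 dpi, and for Efhb -2.18 and -1.41, with differences of -0.36 ± 0.40 (SE, FDR 0.937) and -0.78 ± 0.59 (SE, FDR 0.912). Kcnb2 had 0.50 and -0.18, a difference of 0.67 ± 0.17 (SE, FDR 0.909). Time and route of the drug cannot be told apart in that comparison.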

How the data were processed

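Hippocampal mRNA of 4 Sham + VH and 4 Sham + CD mice at 3 dpi was compared. The authors sequenced stranded mRNA libraries, used MapSplice to align paired reads to mm10, and HTSeq 0.9.1 to count them per gene. The deposited tables hold raw counts for 32594 gene symbols. The annotation and the strand setting of the counting are not given in the sources used here, so values of overlapping or antisense genes and of close paralogs are uncertain. Each column was assigned by its name, and 0 columns lacked a sample.

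Genes were kept by filterByExpr and counts scaled by TMM. The groups were compared in a fit of all 16 hippocampal libraries at 3 dpi by edgeR 4.0.16 (R 4.3.3), using its quasi-likelihood F test, which is 2-sided. Benjamini-Hochberg adjustment covered all 16756 genes tested. Differentially expressed genes (DEGs), also termed called genes, were those changed by more than 0.32 on the log2 scale in either direction with FDR under 0.05, as in the study. The standard error is the log2 fold change divided by the square root of F. Differences between effects of candesartan were interaction terms of the same test, for regions and time points in fits that treat their libraries as independent. CPM values were computed with the TMM-scaled library sizes. The test was checked on simulated counts. Alternatives were DESeq2 1.42.0, RLE factors, no filter, the FDR alone, only the sham libraries, a replicate block, a choroid plexus score (mean log2 CPM of that list, prior count 2) as a covariate, other limits on r, and each library left out in turn. Tables and plots used Python 3.11.15, pandas 2.3.3 and matplotlib 3.10.9.

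The comparison and the gene lists were chosen with earlier results of these data known. Named are the 10 largest changes in each direction among DEGs whose groups did not overlap and whose mean reached 1 CPM, the 10 DEGs with the smallest p in each direction, the 4 most abundant members of each list, every called list member, all renin-angiotensin genes, and the leading genes of each interaction. Others are marked as chosen after their values were seen. Positions come from GENCODE vM21 and upstream sequences from RefSeq, both on GRCm38. Results of some genes that this rule names are not reported here. Quantitative PCR and pathway enrichment were not analysed here.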

Additional observations from a re-analysis of the deposited data

Results flagged for a closer look

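In 27 cases 1 library of a sham group lay far from the other 3. Chance alone marks about 1 in 20 groups of 4 in this way, and 122 genes and 33 lists were examined in both groups. For these choroid plexus genes the library was Sham + VH replicate 3, always low: Col8a1 at 0.984 CPM, Kcnj13 at 1.56 CPM, Oca2 at 0.451 CPM, Prlr at 5.70 CPM, Steap1 at 0.369 CPM, Tmem72 at 0.451 CPM and Tmprss11a at 0.082 CPM. It was also low for Cd59a, a complement inhibitor, at 7.99 CPM, Igfbp2 at 17.3 CPM, Ppp1r1b at 48.0 CPM, Ucp2 at 18.8 CPM and AK138348 at 0.205 CPM. It was high for Gad1, which makes GABA, at 315.9 CPM, and for the summed astrocyte list at 9875 CPM.

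Sham + CD replicate 4 was low for Acaa2 at 14.6 CPM, Agt at 20.4 CPM, Calml4 at 1.11 CPM, Slc4a2 at 27.3 CPM and Vat1l at 14.1 CPM. It was high for the sodium channel gene Scn8a at 541.5 CPM and for the summed list of dentate granule neurons at 1262 CPM. Sham + CD replicate 1 was high for the summed lists of endothelium at 763 CPM and of pericytes and smooth muscle at 213 CPM. Sham + CD replicate 3 was low for the activity-dependent gene Arc at 118 CPM. Sham + VH replicate 4 was high for Cfap126 at 6.77 CPM and for border macrophages and leukocytes at 12.3 CPM, and Sham + VH replicate 1 for CA3 and CA2 pyramidal neurons at 1328 CPM.

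The effect of candesartan in sham mice differed between hippocampus and hypothalamus, by the interaction test of edgeR, for these named genes (difference in log2 fold change): Sfrp5 -3.71, Col17a1 -4.32, Vat1l -1.67, Ctnnal1 -0.80, Acacb -1.31, Sulf1 -2.92, Cdr2 -1.41, Prlr -3.40, Ace -3.05, Col8a1 -4.58, Trpv4 -3.84, Acaa2 -0.82, Cd59a -1.07, Slc4a2 -1.43, Otx2 -4.31, Mdfic -1.84, Nxn -0.92, Enpp2 -3.47, Clic6 -4.17, Ucp2 -0.96 and Perp -1.60. Between hippocampus and thalamus it differed for Sfrp5 (-3.49), Col17a1 (-3.55), Cd59a (-1.25), Slc4a2 (-1.64), Cdr2 (-1.39), Vat1l (-1.42), Acacb (-1.18), Ctnnal1 (-0.69), Prlr (-3.18), Kcnb2 (0.85), Sulf1 (-2.35), Aldh3b1 (-0.91) and Otx2 (-3.79). The groups of the hippocampus enter all of these differences, Sham + VH replicate 3 included.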

How the results depend on the processing

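With RLE factors the comparison gave 254 DEGs, without the filter 315, with only the 8 sham libraries 250 and with the FDR alone 276, of which 24 increases. The fit of only the sham libraries shared 179 of the 251 DEGs and 10 of the 14 increases. DESeq2 gave 440, with 405 decreases and 35 increases, and only the sham libraries gave 25 increases. With the choroid plexus score as covariate all 3 counts were 0. Leaving out 1 of the 8 sham libraries gave 0 to 553 DEGs, 0 to 526 decreases and 0 to 27 increases. The difference from injured mice ranged from 0 to 431 genes (DESeq2 330), from the hypothalamus from 22 to 236 (DESeq2 131), from the thalamus from 10 to 223 (DESeq2 82), and 3 against 29 dpi stayed at 0. With r above 0.9 at 29 dpi, 140 decreased genes varied with the choroid plexus score, and with r above 0.5 it was 230.

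Among the 122 genes examined, log2 fold changes of called genes changed sign only with the choroid plexus score as covariate, namely to 0.086 for Ace, 0.11 for Clic6, 0.10 for Kcnj13, 0.30 for Kl, 0.13 for Oca2, 0.24 for Slc13a4, 0.089 for Slc4a5, 1.09 for Tmem72, 0.51 for Tmprss11a and 0.077 for Wfikkn2. Another 29 sign changes over these settings concerned named genes that were not called. The causes were not tested.

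Replicate numbers did not pair the sham libraries. The deviations of equal numbers correlated between -0.15 and 0.12, and 1 of 4 Sham + VH libraries correlated best with its own number. With a replicate block there were 296 DEGs, 267 decreases and 29 increases, and 106 genes for the difference from injured mice.

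With 4 libraries per group the vehicle spread limits what can be called for choroid plexus genes. Genes under about 1 CPM, such as Agtr1a, rest on few counts.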

Other observations

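Long genes had higher log2 fold changes than short genes in the sham comparison, a pattern that was noticed in the data and is given as values. Of the 14 increased genes 10 have a position, and their median genomic span was 285450 bases, compared with 24652 bases for all genes tested that have a position and 26910 bases for the decreased genes. Over all genes, the median log2 fold change was -0.06 for 3642 genes spanning up to 10000 bases and 0.10 for 935 genes spanning over 200000 bases, 72.3% of which were positive. Leaving out any 1 of the 8 libraries kept these medians between -0.07 and -0.04 and between 0.08 and 0.11. With the choroid plexus score as covariate they were -0.06 and 0.05. For candesartan in injured mice the median of the longest class was -0.05, in sham mice at 29 dpi 0.01, in the sham hypothalamus -0.01 and in the sham thalamus -0.02. Nuclear long RNAs, a list that bears on RNA quality, had 8 of 10 positive with a median of 0.09 and 0 calls by edgeR. Of them 3 had an unadjusted p under 0.05, compared with 2511 of all 16756 genes tested, and DESeq2 called 0. Their summed level was 6802 to 7717 CPM in Sham + VH and 7118 to 8432 CPM in Sham + CD, with overlap. The differences between these values were not tested, and genes are not independent replicates.

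Immediate early genes, which neurons induce with activity, had 0 calls by edgeR among 20 measured members (3 at an unadjusted p under 0.05, 0 by DESeq2), 19 of them positive, with a median of 0.19. Their summed level was 809, 769, 637 and 687 CPM in Sham + VH and 899.8, 938, 735 and 904 CPM in Sham + CD, with overlap. Circadian clock genes had 15 of 18 positive with a median of 0.10 and 0 calls by edgeR (3 at an unadjusted p under 0.05, 0 by DESeq2), and their summed level did not overlap between the groups, at 1310 to 1398 CPM in Sham + VH and 1440 to 1466 CPM in Sham + CD. Type I interferon response genes had 16 of 21 negative with a median of -0.24 and 0 calls by edgeR (3 at an unadjusted p under 0.05, 1 by DESeq2), at 127 to 155 CPM against 125 to 130.4 CPM. For comparison with these lists, 2511 of all 16756 genes tested had an unadjusted edgeR p under 0.05, and DESeq2 called 440.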
